A study of Mus musculus with 8 samples.

Results

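The genes described here are those whose name on the array is Zfp followed by a number, the mouse symbol for zinc finger protein. They were chosen by name, with no use of signal, and 330 of the 34821 gene names on the array qualified, with 520 probes. A gene was kept where at least 1 of its probes was well above background on all 8 arrays, and its brightest such probe gave its value. This kept 293 genes, or 88.8%, against 55.7% of all gene names. The array design describes 290 of these 293 as zinc finger proteins. RefSeq matched all of them, 283 by accession and 10 by symbol, and now calls 4 by another symbol, among them Zfp191, listed there as Zfp24.

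Total RNA came from the hippocampus of female C57BL6/J mice, 8 weeks old by the labels, that had all been housed for 4 weeks in an enriched environment. One group had received a control antibody (4 arrays) and the other anti-CD4 antibody (4 arrays), whose target CD4 marks helper T cells. The comparison addresses whether anti-CD4 treatment alters hippocampal transcription. Whether each sample is a separate animal is not in the labels, and p-values therefore reflect sample-to-sample spread that may be technical. Every mouse was in enriched housing, so no value here bears on standard housing, and loss of CD4-positive cells was not measured by these values.

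Most Zfp-named proteins carry arrays of C2H2 zinc fingers, small folds held by a zinc ion that each read a few bases of DNA. Many also carry a KRAB domain, which binds TRIM28 (KAP1). TRIM28 in turn brings the histone methyltransferase SETDB1, heterochromatin proteins and the NuRD complex, and the DNA is packed into silent chromatin. KRAB zinc finger genes arose by tandem duplication, lie in dense clusters, and are best known for silencing retroelements and for keeping genomic imprints. Other Zfp names belong to unrelated proteins that bind RNA, act on ubiquitin or work in neural development.

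Each value is a log2 signal minus the 75th percentile of its array, and a difference is anti-CD4 minus control. Levels of different probes are not comparable with each other. The test ran over 19406 rows, 1 per gene name or unnamed probe. In the bulk tissue measured here, fewer cells of a type and less RNA per cell cannot be told apart.

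Each array had 51.1% to 54.3% of its probes well above background and no saturated spot. Correlations were 0.992 to 0.997 for arrays of one group and 0.989 to 0.996 across the groups. The arrays shared 1 slide, with the anti-CD4 arrays in slide row 1 and the controls in row 2, so the effects of slide row and treatment cannot be told apart. Repeat probes varied by 3.68% to 4.21% on the control arrays and by 4.96% to 5.26% on the anti-CD4 arrays (median CV). Of the hippocampal markers, 13 of 13 pan-neuronal, 11 of 12 pyramidal and 12 of 14 dentate granule genes were kept. Of the dentate genes, 11 of 12 lay below control (median -0.25, 2 lower and 1 higher at an unadjusted p under 0.05), and the pyramidal genes had a median of -0.15, with 7 of 11 below control. The 10 kept choroid plexus genes had a mean between -0.92 and 3.67 in controls and between -0.22 and 4.04 in the anti-CD4 arrays. For the 10 kept genes of hypothalamus and amygdala the ranges were 0.61 to 0.89 and 0.74 to 1.64, and 7 were higher at an unadjusted p under 0.05. Of 7 red blood cell genes, 5 were higher by the same rule (0 lower). Over all rows, 6.5% were lower and 7.05% higher by that rule. The part of these tissues in the results below was not tested.

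The upstream sequences of the 4 lower members with the smallest p-values, and of Zfp1, are printed because the account of single genes starts with them, Zfp1 because it holds the strict form of an element frequent in the family. They are RefSeq sequences on GRCm38.p6, 250 bases before the annotated start, 5′ to 3′, with capitals on the elements searched for.
Zfp317, chr9:19621841-19622090, plus strand: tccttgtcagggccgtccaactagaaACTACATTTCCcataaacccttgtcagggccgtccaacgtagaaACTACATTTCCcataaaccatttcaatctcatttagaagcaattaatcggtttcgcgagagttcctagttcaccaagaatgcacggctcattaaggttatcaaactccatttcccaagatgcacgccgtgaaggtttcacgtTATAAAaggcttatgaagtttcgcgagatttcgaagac
Zfp101, chr17:33394638-33394887, minus strand: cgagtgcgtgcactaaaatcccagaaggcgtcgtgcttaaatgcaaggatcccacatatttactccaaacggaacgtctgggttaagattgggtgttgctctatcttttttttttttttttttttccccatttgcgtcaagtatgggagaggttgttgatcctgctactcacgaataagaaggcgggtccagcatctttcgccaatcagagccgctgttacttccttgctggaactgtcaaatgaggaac
Zfp160, chr17:21008691-21008940, plus strand: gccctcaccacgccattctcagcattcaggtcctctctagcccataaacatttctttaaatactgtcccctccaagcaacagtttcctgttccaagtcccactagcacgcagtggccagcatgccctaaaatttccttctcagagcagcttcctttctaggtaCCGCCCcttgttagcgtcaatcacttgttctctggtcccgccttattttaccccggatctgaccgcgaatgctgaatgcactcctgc
Zfp758, chr17:22361213-22361462, plus strand: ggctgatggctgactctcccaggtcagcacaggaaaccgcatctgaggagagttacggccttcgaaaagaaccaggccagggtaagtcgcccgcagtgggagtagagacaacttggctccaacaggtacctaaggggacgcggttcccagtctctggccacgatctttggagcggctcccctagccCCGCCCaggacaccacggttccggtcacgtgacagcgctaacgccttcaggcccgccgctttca
Zfp1, chr8:111643193-111643442, plus strand: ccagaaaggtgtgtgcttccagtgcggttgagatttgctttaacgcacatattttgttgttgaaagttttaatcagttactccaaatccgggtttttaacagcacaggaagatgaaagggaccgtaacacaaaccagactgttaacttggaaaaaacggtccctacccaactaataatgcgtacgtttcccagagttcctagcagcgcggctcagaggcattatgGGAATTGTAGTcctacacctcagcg
The elements were searched on both strands: the element that Zfp143 binds, whose reverse complement stands in capitals for Zfp1 (strict form), a looser form with 2 central bases free (which includes every strict match), the ETS-type ACTTCCGG, the NRF1-type element, the GC box GGGCGG and the TATA box TATAAA. They were chosen after the values were known. The capitals in Zfp317 are 2 copies of the looser element and a TATA box. Those in Zfp160 and Zfp758 are a GC box on the other strand, and those in Zfp1 are the strict element on the other strand. None of the 6 was found in the window of Zfp101.

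Upstream windows were at hand for 239 kept members and for 17491 protein-coding genes. The members were well above background on all 8 arrays, whereas the coding genes were not chosen by signal. The part of this in the shares below was not tested. The strict Zfp143 element lay in 9 members' windows (3.77%), against 0.440% of coding genes, and the looser form in 42 (17.6%) against 2.89%. The ETS-type element was in 26 (10.9% against 4.26%) and the NRF1-type element in 7 (2.93% against 1.21%). The GC box was about as frequent in both, at 46.4% and 45.8%, and the TATA box was in 7.95% of members and 13.7% of coding genes. The median number of CpG pairs per window was 12 in members and 11 in coding genes. Members with the strict element had a median difference of 0.05, with 2 of 9 below control, 0 lower and 1 higher at an unadjusted p under 0.05. Members with the looser Zfp143 element had a median difference of -0.02, with 23 of 42 below control, and members without it -0.0040. The 19 members with a TATA box had a median of -0.07, with 13 below control. Zfp143 itself differed by -0.17 (adjusted p = 0.545, limma).

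Between the groups, no Zfp-named gene passed an adjusted p of 0.05, and neither did any of the 19406 rows (limma, 0%). The smallest adjusted p of a member was 0.160, for Zfp317. An unadjusted p under 0.05 was reached by 35 of 293 members (11.9%) and by 13.5% of all rows, a share near the background. Of these, 20 were lower (background 6.5%) and 15 higher (background 7.05%) in the anti-CD4 group. The groups did not overlap for 27 members (background 8.37%), 15 lower (background 4.16%) and 12 higher (background 4.22%). The number of higher members was 9 without control replicate 1, 8 without anti-CD4 replicate 1 and 9 without anti-CD4 replicate 2. Higher rows over the whole array also fell at these settings, from 1368 to 1071, 1018 and 1018. Without anti-CD4 replicate 3 the groups did not overlap for 53 members. Fewer arrays make separation easier, and the matching share of all rows is not given here. Higher rows over the whole array rose to 1878 at that setting. With arrays centred on their medians the split was 11 lower and 23 higher, and that of all rows went from 1261 lower and 1368 higher to 690 and 1946.

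Differences were small. Of the 293 members, 271 (92.5%) differed by less than 0.25, against 87.3% of all rows, and the largest fold was 1.45, for Zfp882. The median difference was -0.0075 against 0.01 over all rows, and 154 members (52.6%) lay below the control mean (background 46.9%). The median within-group SD was 0.12 for members and 0.13 for all rows.

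**Figure D1:**
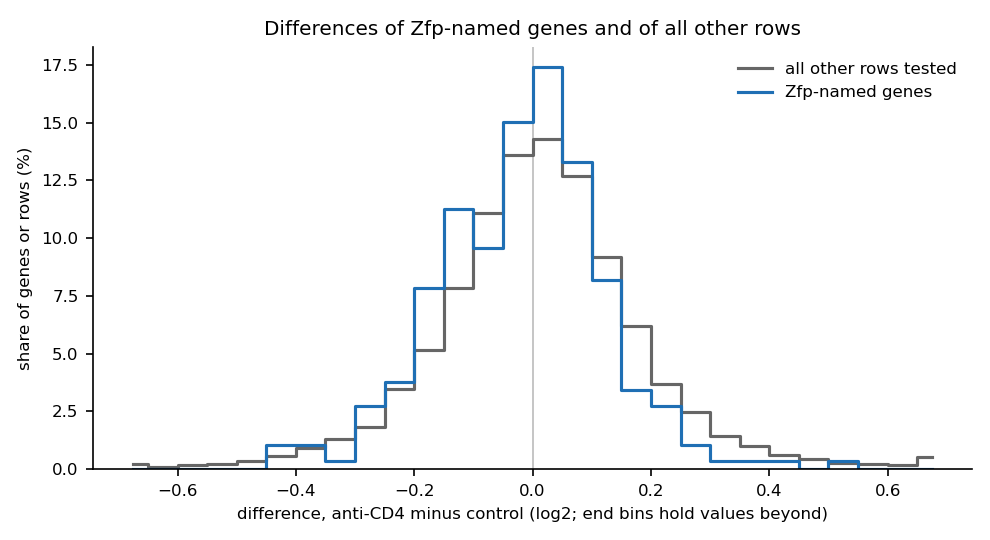
Share of Zfp-named genes (blue, 293 genes) and of all other rows tested (grey) in each bin of 0.05 of the log2 difference, anti-CD4 minus control, with values beyond the axis in the end bins. The members' curve is narrower on the higher side, and its median is -0.0075.

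The lower members with the smallest p-values were led by a dispersed gene and by 3 genes of chromosome 17. Zfp317, which encodes a KRAB zinc finger protein, read -0.51, -0.32, -0.55 and -0.50 in the controls and -0.87, -0.85, -0.82 and -0.86 in the anti-CD4 arrays (replicates 1 to 4). All anti-CD4 arrays lay below all controls and within a narrow band. The difference was -0.38 ± 0.07 (SE), with means of -0.47 ± 0.10 and -0.85 ± 0.02 (SD, n = 4; adjusted p = 0.160, limma). Its probe lies at chr9:19453464-19453523 (mm9, plus strand).

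Zfp101 read -0.47, -0.57, -0.59 and -0.65 in the controls and -0.91, -1.05, -0.76 and -0.996 in the anti-CD4 arrays. The groups were separate, with anti-CD4 replicate 3 nearest to the controls. The difference was -0.36 ± 0.08 (SE; adjusted p = 0.200, limma).

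Zfp160 read -0.94, -0.72, -1.17 and -0.91 in the controls and -1.35, -1.43, -1.23 and -1.42 in the anti-CD4 arrays. Control replicate 3 came close to the anti-CD4 values without reaching them. The difference of -0.42 ± 0.10 (SE; adjusted p = 0.211, limma) was -0.22 with normexp background correction and -0.15 in the authors' deposited table, and a further probe of the gene differed by -0.17.

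Zfp758 read -0.20, -0.13, -0.29 and -0.38 in the controls and -0.56, -0.58, -0.43 and -0.68 in the anti-CD4 arrays. The groups were separate by a small margin, again with anti-CD4 replicate 3 the highest of its group. The difference was -0.31 ± 0.08 (SE; adjusted p = 0.217, limma), and the gene's other kept probe differed by -0.19. These 4 lower genes had folds of 1.24 to 1.34.

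The remaining lower genes named by the rule were Zfp120, Zfp442, Zfp91 and Zfp512, with differences of -0.25, -0.17, -0.24 and -0.17. Zfp120 was lower with its other probe as well (-0.34). Zfp442 read 2.85 to 2.87 in the controls and 2.65 to 2.73 in the anti-CD4 arrays. Zfp91, a ubiquitin ligase of the noncanonical NF-kappaB pathway, read -1.56 to -1.28 and -1.77 to -1.57, and differed by -0.16 in the authors' deposited table. Adjusted p-values of these 4 genes were 0.238 to 0.2503 (limma). Zfp189 and Zfp740, which the rule does not name and which were picked for their size, read -0.43 and -0.40 relative to control, and their groups overlapped.

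The probe of Zfp442 is shown because probes of different members can share sequence. It holds a run of 31 bases that also stands in 1 probe of its neighbour Zfp937 (capitals, both 60 bases, mm9).
Zfp442, chr2:150234210-150234269, minus strand: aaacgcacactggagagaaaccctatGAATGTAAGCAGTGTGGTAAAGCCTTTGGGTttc
Zfp937, chr2:150065180-150065239, plus strand: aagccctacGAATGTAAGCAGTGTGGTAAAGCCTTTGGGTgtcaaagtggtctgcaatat
The value of Zfp937 rests on another probe and differed by -0.10 (adjusted p = 0.684, limma), and the mean of its further probes differed by 0.07. In all, 15 members' probes shared 16 or more bases in a row with a probe of another member, 2 of them among the 35 called. Some of these pairs lay on different chromosomes: the probe of Zfp442 also shared 24 bases with that of Zfp930, on chromosome 8. How much such probes read of the other gene was not tested.

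On the higher side, Zfp882 read -1.20, -1.63, -1.55 and -1.54 in the controls and -1.04, -0.87, -0.66 and -1.20 in the anti-CD4 arrays. Control replicate 1 and anti-CD4 replicate 4 nearly met. The difference of 0.54 ± 0.13 (SE; adjusted p = 0.212, limma) was the largest of all members, but the gene's other probe differed by 0.07, and the mean of both probes by 0.30.

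Zfp217, a transcriptional repressor known as an oncogene of breast cancer, read -1.46, -1.88, -1.67 and -1.53 in the controls and -1.39, -1.25, -1.05 and -1.22 in the anti-CD4 arrays. The groups were separate, with control replicate 2 lowest and anti-CD4 replicate 3 highest. The difference was 0.41 ± 0.11 (SE; adjusted p = 0.217, limma).

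Zfp428 read 0.84, 0.84, 0.90 and 0.91 in the controls and 1.30, 1.03, 1.11 and 1.07 in the anti-CD4 arrays. Its controls were tight and its other probe also read higher, by 0.37, so 2 probes gave the same direction. The difference was 0.26 ± 0.07 (SE; adjusted p = 0.224, limma).

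The other higher genes named by the rule were Zfp703, Zfp191, Zfp622, Zfp330 and Zfp658, with differences of 0.25, 0.23, 0.22, 0.19 and 0.14. Zfp703, a corepressor also known from breast cancer, read 3.17 to 3.39 in the controls and 3.45 to 3.64 in the anti-CD4 arrays. The second kept probes of Zfp191 and Zfp330 differed by only 0.0052 and 0.04. Adjusted p-values of the 5 genes were 0.239 to 0.345 (limma).

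**Figure D2:**
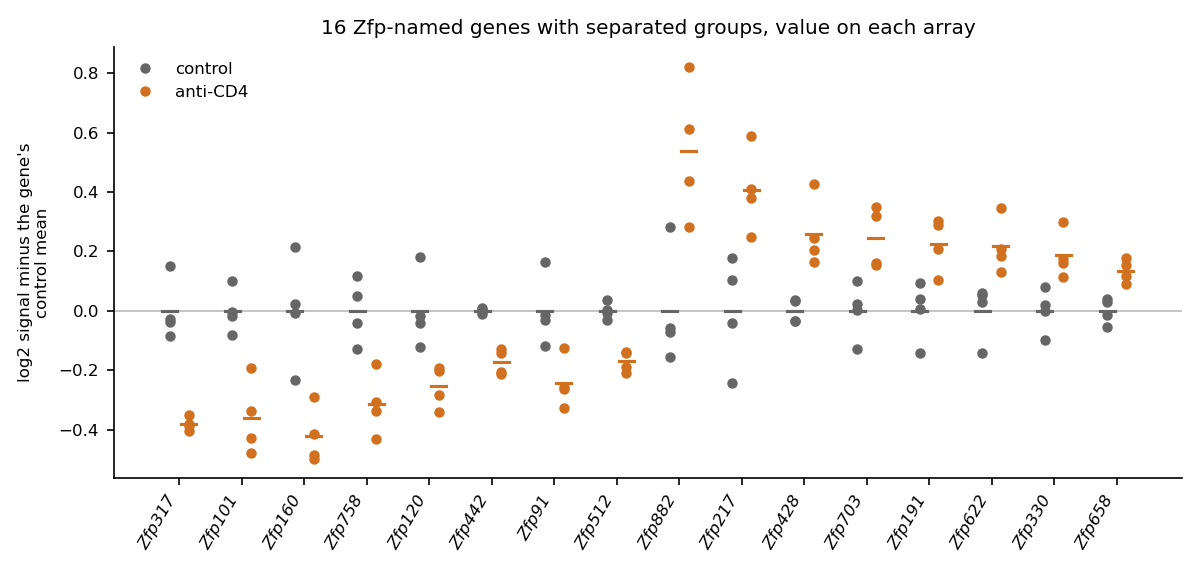
Value of each array for the 8 lower and 8 higher members with the smallest p-values among those whose groups did not overlap, as log2 signal minus the gene's control mean (grey, 4 control arrays; orange, 4 anti-CD4 arrays; bars, group means). For Zfp882 and Zfp91 the nearest arrays of the groups almost touch, while Zfp317 and Zfp442 show a clear gap.

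A second probe gave a check on single genes that the rule had not used. Of 97 members with more than 1 kept probe, the brightest probe and the mean of the others had the same sign in 55, and their differences correlated at r = 0.39 across genes, which share the same arrays and are not independent. Of the 12 of these with an unadjusted p under 0.05, 11 had the same sign, Zfp707 being the exception (0.22 and -0.07).

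**Figure D3:**
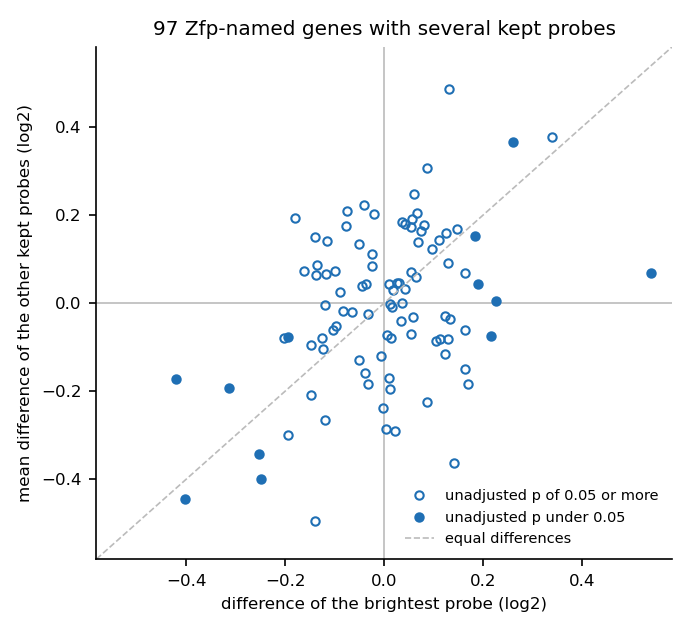
Log2 difference of the brightest probe against the mean difference of the other kept probes for 97 Zfp-named genes (filled, unadjusted p under 0.05; dashed line, equal differences). Filled points lie mostly in the same-sign quadrants, and the point far to the right is Zfp882, at 0.54 and 0.07.

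By position, members were joined into a cluster where neighbouring probes lay within 500 kb, with at least 4 members on the array. This gave 19 clusters with at least 3 kept members, holding 136 kept genes, and 9 of them lie on chromosome 7. Clustered members had a median difference of -0.03, with 81 of 136 below control (59.6%). At an unadjusted p under 0.05, 12 were lower and 6 higher (13.2%, near the background of 13.5%). The 157 dispersed members had a median of 0.0091, with 73 below control (46.5%), 8 lower and 9 higher (10.8%). The median lay below 0 in 15 of 19 clusters, in 11 after median-centring, and in 12 without control replicate 2. The 198 other rows within the spans of these clusters were below control in 53.5% of cases, 15 lower and 9 higher. Over all rows, 46.9% were below control, 6.5% lower and 7.05% higher.

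The clusters of chromosome 17 held 27 kept members, of which 18 lay below control, 6 were lower and 0 higher at an unadjusted p under 0.05 (22.2%, background 13.5%). Joining these clusters was not planned, and the proximal one had the most lower calls of any cluster (4). The share is therefore a description and not a test. None of the 27 passed the adjusted threshold (smallest adjusted p = 0.200, limma). The median of these genes was -0.09, whereas the 944 rows of chromosome 17 that are not Zfp-named had a median of 0.02, with 58 lower and 81 higher. In the proximal cluster (chr17:21165104-23713036, mm9; 16 genes), Zfp160, Zfp758, Zfp944 and Zfp213 were lower, at -0.42, -0.31, -0.19 and -0.18, and Zfp13 stood at the other end at 0.15. In the distal cluster (chr17:32910629-33768635; 11 genes) 9 members lay below control, among them Zfp101 at -0.36 and Zfp563 at -0.27.

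The median deviation of the distal cluster from its genes' control means was, for replicates 1 to 4, -0.06, 0.12, 0.01 and -0.10 among controls and -0.08, -0.12, -0.15 and -0.11 under anti-CD4. All anti-CD4 arrays were low, but control replicate 4 fell among them and control replicate 2 stood high. The cluster's median difference of -0.12 was -0.04 without control replicate 2, -0.04 with normexp and in the authors' deposited table, -0.07 with array weights and -0.18 without control replicate 4. In the proximal cluster the deviations were -0.10, 0.12, -0.03 and 0.02 in the controls and -0.05, -0.20, 0.02 and -0.11 in the anti-CD4 arrays, so the groups overlapped. The proximal median of -0.06 shrank to -0.02 when control replicate 2 was left out and to -0.0067 when anti-CD4 replicate 2 was. It was -0.10 without anti-CD4 replicate 1 or control replicate 3, -0.11 without anti-CD4 replicate 3 and -0.03 after median-centring. The 32 other rows within the proximal span had a median of -0.08, with 6 lower, 3 of them described as lincRNA, and 0 higher.

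Elsewhere, all 3 kept genes of the chromosome 2 cluster were below control (Zfp120, Zfp442 and Zfp937, median -0.17), as were all 4 of the third chromosome 7 cluster (median -0.16, none at an unadjusted p under 0.05). The median of the latter was -0.09 without control replicate 1. The chromosome 13 cluster (chr13:67139715-67927746, 12 genes) had a median of -0.10 and 8 genes below control, with Zfp708 at -0.39. That median was -0.05 with normexp, -0.06 after median-centring and without control replicate 3, and -0.06 without control replicate 2. The chromosome 6 cluster and the ninth chromosome 7 cluster leaned the other way, each with a median of 0.05, 1 member higher and 0 lower, namely Zfp783 at 0.26 and Zfp553 at 0.18. Zfp882 lies in a chromosome 8 cluster whose other 3 genes differed by -0.15 to 0.0043.

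**Figure D4:**
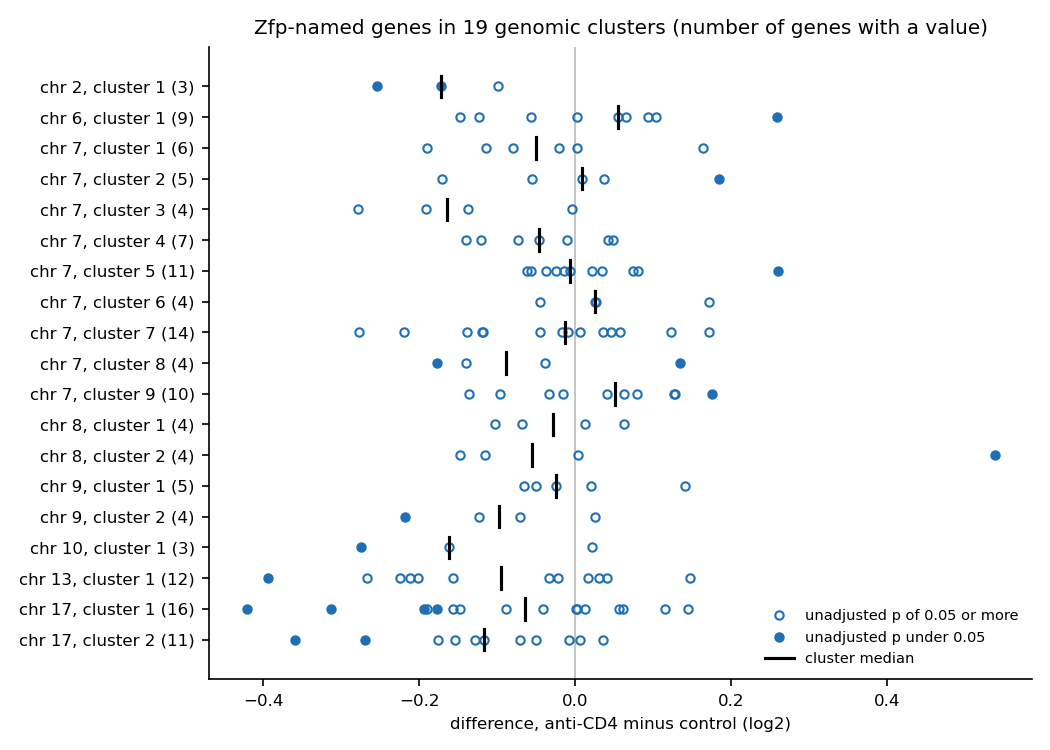
Log2 difference of each kept member in the 19 genomic clusters (filled, unadjusted p under 0.05; black tick, cluster median; number of genes in brackets). Medians lie left of 0 in 15 clusters, and filled points in the chromosome 17 clusters are all on the lower side.

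All rows were split into terciles of the mean signal of their probe over the 8 arrays, at -0.65 and 2.02, a split chosen after the data were seen. Probe signal sorts the measurements by brightness and does not order genes by expression. The dim tercile held 112 members, and 77 of them (68.8%) lay below control, against 49.3% of the 6357 other rows of that tercile. Their median was -0.06 against 0.0042. In the middle tercile (132 members) the median was 0.0079 and in the bright tercile (49 members) 0.04, against 0.0015 and 0.02 in the other rows. At an unadjusted p under 0.05, members were 10 lower and 4 higher in the dim tercile and 2 lower and 6 higher in the bright one. These shares were 12.5% and 16.3%, against 14.9% and 11.4% of the other rows. The other rows also had more lower calls in the dim tercile (504 lower, 441 higher) and more higher calls in the bright one (275 lower, 460 higher).

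By array, the median deviation of the 112 dim members was -0.03, 0.04, -0.0080 and -0.01 in the controls and -0.06, -0.11, -0.04 and -0.10 in the anti-CD4 arrays. All anti-CD4 arrays lay below all controls, while the other dim rows ranged from -0.03 to 0.02 over the 8 arrays. The mean of the dentate granule genes was 0.74, 1.28, 1.03 and 0.83 in the controls and 0.94, 0.44, 0.96 and 0.60 in the anti-CD4 arrays. It was highest in control replicate 2 and lowest in anti-CD4 replicates 2 and 4, where the dim members were also highest and lowest, and its part in their values was not tested. The number of dim members below control was 66 to 79 over all alternatives and arrays left out, with medians of -0.08 to -0.03 against -0.0084 to 0.04 in the other rows. The median was -0.03 after median-centring and with normexp, and -0.04 with quantile normalization. Position and signal were not separate: 54 of the dim members were clustered, with 42 below control (77.8%), and 58 dispersed, with 35 below control (60.3%). Of the brighter members, 39 of 82 clustered and 38 of 99 dispersed genes lay below control. Across the 293 members the difference correlated with mean signal at r = 0.28, and across all other rows at r = 0.05; these genes share the same arrays.

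**Figure D5:**
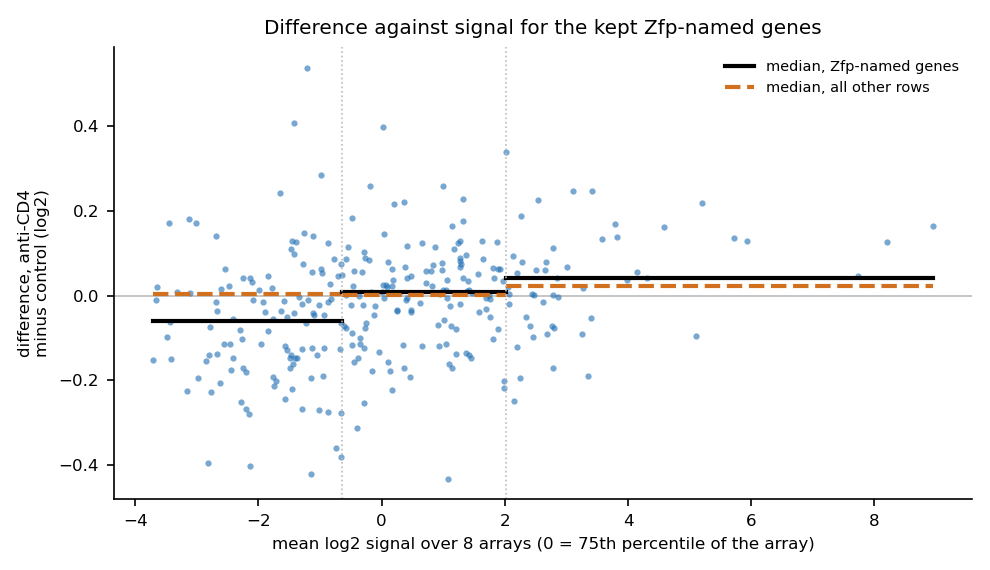
Log2 difference against mean log2 signal over 8 arrays for the 293 members (points), with the median of members (black) and of all other rows (orange, dashed) in each tercile of signal (dotted lines). The medians of members are -0.06, 0.0079 and 0.04 from dim to bright, and those of other rows stay between 0.0015 and 0.02.

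Zinc finger genes under other names gave a comparison. The 274 tested rows that the array design describes as zinc finger but that are not Zfp-named had a median of -0.02. Of these, 25 were lower and 17 higher (15.3%, background 13.5%). Of the 75 in the dim tercile, 46 (61.3%) lay below control, with a median of -0.03. By name, 34 Zbtb genes had a median of 0.02 (2 lower, 1 higher), 17 Zscan and Zkscan genes 0.01 (1 and 1) and 13 Klf genes 0.02 (1 and 1). Their called shares were 8.82%, 11.8% and 15.4%. No difference between these families and the Zfp-named genes was tested.

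By role, 7 kept genes guard imprints or silence retroelements. Of these, 5 were below control (background 46.9%) and 1 was lower at an unadjusted p under 0.05 (14.3%, near the background of 13.5% called), with a median of -0.12 against 0.01 over all rows. Zfp708, which binds a retroelement family in the mouse, read -2.67, -2.38, -2.63 and -2.79 in the controls and -2.97, -3.27, -2.68 and -3.13 in the anti-CD4 arrays. Anti-CD4 replicate 3 fell within the control range, and the difference of -0.39 ± 0.13 (SE; adjusted p = 0.266, limma) was -0.18 with normexp and -0.16 in the authors' deposited table. The imprint guardians Zfp57 and Zfp445 differed by -0.13 and 0.06. Zfp809, which silences murine leukemia proviruses, and the retroelement-binding Zfp932 and Zfp961 differed by -0.12, -0.10 and -0.15, and Zfp568, which silences a placental Igf2 transcript, by 0.17. Their smallest adjusted p was 0.266 (limma).

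The machinery that KRAB zinc finger proteins act through was measured in 29 genes. None passed the adjusted threshold, and the median was -0.01. At an unadjusted p under 0.05, 4 were lower and 1 was higher (17.2%, background 13.5%). Trim28 itself read 3.15, 3.05, 3.14 and 3.16 in the controls and 3.05, 3.11, 3.13 and 3.13 in the anti-CD4 arrays. Its groups overlapped, and the difference of -0.02 (adjusted p = 0.904, limma) was -0.08 with normexp and -0.09 in the authors' deposited table. Setdb1, the methyltransferase that TRIM28 brings in, read 0.04, 0.06, -0.04 and -0.04 in the controls and -0.30, -0.10, -0.15 and -0.19 in the anti-CD4 arrays. The groups were separate, and the difference was -0.19 ± 0.07 (SE; adjusted p = 0.272, limma).

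Atf7ip, the partner that stabilises SETDB1, differed by -0.28 ± 0.08 (SE; adjusted p = 0.227, limma), with 4 of 4 anti-CD4 arrays below every control. Pphln1, the periphilin subunit of the HUSH silencing complex, read 1.40 to 1.51 in the controls and 1.18 to 1.21 in the anti-CD4 arrays. Its difference of -0.26 ± 0.06 (SE; adjusted p = 0.188, limma) was -0.14 as the mean of its probes. Mta2 and Mta1, alternative subunits of the NuRD complex, went opposite ways, at -0.20 and 0.20.

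Genes of neural development had a median of 0.06 over 11 kept members. At an unadjusted p under 0.05, 2 were higher and 0 lower (18.2%, background 13.5%). Zfp521, a factor of early neural differentiation, read -1.33, -0.89, -1.22 and -1.07 in the controls and -0.67, -0.89, -0.80 and -1.01 in the anti-CD4 arrays. The groups overlapped through control replicate 2, and the difference was 0.28 ± 0.11 (SE; adjusted p = 0.312, limma). Zfp191, needed for myelination in the central nervous system, was the other, at 2.29 to 2.53 in the controls and 2.54 to 2.73 in the anti-CD4 arrays by its brighter probe. The 14 myelin genes had a median of -0.15, 4 lower and 0 higher (28.6%, background 13.5%). Zfp711 and Zfp365, known from intellectual disability and from neuronal and oligodendrocyte maturation, differed by 0.22 and 0.13. Zfp536, a repressor of neuronal differentiation, and Zfp503, a striatal factor, differed by -0.19 and -0.18 (Zfp503 by 0.0067 as the mean of its probes), and Zfp335, Zfp423, Zfp462, Zfp488 and Zfp292 by -0.07 to 0.12.

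Of 12 kept genes that handle RNA or protein, 2 were lower and 2 higher at an unadjusted p under 0.05 (33.3%, background 13.5%). Their median was 0.0098. The list was drawn up with earlier results of these data known. Its share, like those of the other gene lists, is therefore a description and not a test. Besides Zfp91, Zfp207, which loads the checkpoint protein Bub3 onto kinetochores, was lower, at -0.25 ± 0.11 (SE; adjusted p = 0.353, limma), with -0.40 for its other probe and anti-CD4 replicate 3 within the control range. Zfp622, a maturation factor of the large ribosomal subunit, read 4.95 to 5.15 in the controls and 5.22 to 5.44 in the anti-CD4 arrays. Zfp330, a nucleolar protein, read 2.06 to 2.24 and 2.28 to 2.46. Zfp598, which marks collided ribosomes, and Zfp106, an RNA-binding protein of motor neurons, differed by -0.000158 and -0.09, the latter by -0.03 with normexp. The remaining 6 members lay between -0.10 and 0.10.

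Among 11 kept promoter and chromatin factors, Zfp217 was the 1 member called (9.09%, background 13.5%), and the median was 0.08. Zfp148, Zfp281 and Zfp263, which bind GC-rich promoters, differed by -0.05, -0.08 and 0.08, and Zfp410, which acts chiefly on the NuRD subunit gene Chd4, by -0.04. The other 6 lay between -0.17 (Zfp143) and 0.13 (Zfp64), and their adjusted p-values were 0.527 or more (limma).

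Spread within groups was largest for Zfp185, Zfp575, Zfp74 and Zfp934. Zfp185, a LIM-domain protein despite its name, read 0.13, -0.85, -1.37 and 0.18 in the controls and -1.30, -0.34, 0.44 and -0.47 in the anti-CD4 arrays. The arrays split inside both groups: control replicates 1 and 4 and anti-CD4 replicates 2 to 4 were high and the other 3 low. The mean of the choroid plexus genes on the same arrays was 3.67, -0.04, -0.92 and 3.61 and -0.22, 2.88, 4.04 and 2.95, with the same 5 arrays high; its part in the spread of Zfp185 was not tested. Zfp74 read 0.28 in control replicate 4 and -0.90 to -0.68 on the other 7 arrays.

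Of the 37 genes not kept, 17 were well above background on no array, 5 on 1 to 3 and 15 on 4 to 7. Zfp36 (tristetraprolin), which destabilises cytokine mRNAs, was well above background on no array. Zfp839 was well above background on 3 anti-CD4 arrays and on no control array. It read -4.42 to -4.04 in the controls and -4.00 to -3.57 in the anti-CD4 arrays, so the nearest arrays almost met. A gene picked for signal above background in only 1 group reads higher there by that choice, and no fold is drawn from it. Zfp42 (Rex1), a marker of pluripotent cells, was well above background on 1 array, control replicate 3, at -2.91 against -6.61 to -5.56 on the others.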

How the data were processed

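Hippocampal RNA of 8 samples was measured on 1-colour (Cy3) arrays. Per the file headers, the deposited scanner output gives the intensity of every spot from Feature Extraction 10.7.3.1 (design 028005, probe coordinates on mm9), background-subtracted within each array. The authors deposited a second table of log2 values, whose columns followed each array's own median spot signal (rank correlation 0.99999 or more) and had medians of 7.83, and the submitters' processing notes name limma. All columns were mapped to samples by their titles.

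After removal of control and outlier spots, repeat spots were averaged per probe. The processed signal was put on the log2 scale and the 75th percentile of its array subtracted. The brightest probe well above background on all 8 arrays represented a gene. Groups were compared in R 4.3.3 with limma 3.58.1 (lmFit, eBayes) over 19406 rows, two-sided, with Benjamini-Hochberg adjustment at 0.05. "Lower" and "higher" mean an unadjusted p under 0.05 where so stated. In 5 simulated sets with the real spread over 19406 rows, 90.6% of changes of 1 and 53.6% of changes of 0.5 on the log2 scale were called, and 0.0437% of unchanged rows. The number of arrays limits the precision.

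Members, lists and tests were chosen with earlier results of these data known. Named were 8 members per direction with the smallest p among those with separated groups, the smallest p of each cluster, the 4 largest spreads, the role lists, and Trim28, Setdb1 and called genes of their list. Replicate numbers equal the slide column, and same-numbered arrays deviated with correlations of -0.44, -0.34, -0.32 and 0.22, so they were not treated as pairs. Alternatives covered the normalization, centring, background correction, filter, probe of a gene, a replicate block, trend and robust eBayes, array weights, values of the authors' table, leaving out each array, a threshold of 0.1 and the cluster gap. Promoter elements, shared probe runs, signal terciles, the joining of the chromosome 17 clusters and rows beside clusters were chosen after the data were seen. Protein sequences were not analysed here.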

Additional observations from a re-analysis of the deposited data

Results flagged for a closer look

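In 148 groups of 4 arrays, 3 (2.03%) had 1 array apart from the rest by Dixon's gap criterion, which chance meets in about 1 in 20. The value of Zfp622 was 4.947 for control replicate 1, while the remaining controls lay between 5.12 and 5.15. For Zfp809, control replicate 2 stood at -0.0263 against -0.30 to -0.27, and for Zfp451, a SUMO ligase, anti-CD4 replicate 3 stood at -0.648 against -0.51 to -0.48.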

How the results depend on the processing

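Neither the number of Zfp-named genes past the adjusted threshold nor that of the TRIM28 machinery moved from 0 under any alternative. Of all rows, 1 passed with quantile normalization, with cyclic loess and with median-centring, 2 with normexp, the authors' table and eBayes trend and robust options, 3 with the mean of a gene's probes, 11 with array weights, 6 at an adjusted p under 0.1, and 0 to 26 with each array left out (26 without anti-CD4 replicate 3). Lower members numbered 11 after median-centring, 32 with the authors' table and 15 to 29 with an array left out. Lower rows over the whole array numbered 690, 1680 and 892 to 1392 at these settings, against 1261. Higher members numbered 23 after median-centring and 8 to 17 with an array left out. Higher rows numbered 1946 and 916 to 1878, against 1368. Members with separated groups numbered 16 after median-centring and 31 to 53 with an array left out, where fewer arrays make separation easier. The matching shares of all rows are not given here. With the replicate block there were 12 lower and 8 higher members, 19 of the 20 among the 35 called without it. Over all rows the block gave 924 lower and 914 higher, against 1261 and 1368. The median of all rows was 0.04 after median-centring. The members' median minus that of all rows was -0.02, and -0.0097 with cyclic loess, -0.0063 without control replicate 2, -0.0036 without anti-CD4 replicate 4 and 0.000478 with no filter. The members' median was -0.03 to 0.0070 with an array left out. Clusters with a median below 0 numbered 11 to 16 over all settings. Over 74 named genes and 19 alternatives, none of the 30 with an unadjusted p under 0.05 changed direction or passed the adjusted threshold. Their sizes did move, as for Zfp160 (-0.42, and -0.15 with the authors' table) and Pphln1 (-0.26, and -0.14 as the mean of its probes). Of the genes not called, 13 values moved by more than the within-group SD. The cause of these shifts was not tested. Of the dim members, Zfp160 and Zfp708 went from -0.42 and -0.39 to -0.22 and -0.18 with normexp. Zfp101 and Zfp938 moved less, from -0.36 and -0.27 to -0.31 and -0.28. The looser filters tested 308 and 330 members.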

Other observations

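Members and other rows of the same stretch did not always lean the same way. In the third chromosome 7 cluster, where all 4 members lay below control, the 1 other row was Aurkc, a germline aurora kinase, at 0.47 (adjusted p = 0.220, limma). In the chromosome 10 cluster, members and other rows both leaned lower. There, 9 of 10 other rows lay below control with a median of -0.07, beside a members' median of -0.16 over 3 genes. Zfp820 was well above background on 1 control and 4 anti-CD4 arrays, at -5.20 to -4.16 in the controls and -4.37 to -3.61 in the anti-CD4 arrays, so the groups overlapped. The names in this paragraph were chosen after their values were seen.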
